A study of Mus musculus with 8 samples.

Results

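The Rbbp4/7_KD and Rbbp7_KD libraries make up 4 of the 8 libraries of a series on mouse late morulae, with 2 libraries per group. Rbbp4/7_KD zygotes received small interfering RNAs (siRNAs) that target Rbbp4 and Rbbp7, and Rbbp7_KD zygotes an siRNA against Rbbp7 alone. Setting them against each other shows what changed when Rbbp4 was targeted in embryos that also received Rbbp7 siRNA. The difference is taken between these 2 groups, while its error was estimated over all 8 libraries, those of the controls included. The other 4 libraries came from Rbbp4_KD zygotes, injected with siRNA against Rbbp4, and from NC zygotes, injected with a non-specific siRNA. All embryos were collected 78 h after fertilization and none was left uninjected. The labels give neither the strain nor the number of embryos per library, and they do not say that libraries of a group came from separate embryos or injection sessions. The p-values therefore measure only the spread between these libraries, which may be technical.

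RBBP4 and RBBP7 are closely related WD-repeat proteins that bind histones H3 and H4. They serve as shared subunits of several chromatin complexes, among them the deacetylase complexes NuRD and SIN3 and the methyltransferase complex PRC2. RBBP4 is also a subunit of the histone chaperone CAF-1 and of MuvB, a complex that acts on cell cycle promoters, while RBBP7 is the partner of the acetyltransferase HAT1. The late morula is the stage at which outer cells begin to form trophectoderm, the future placenta, and inner cells keep pluripotency genes such as Nanog.

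Values are abundances per gene, normalized between libraries, and read depth is unknown. A log2 difference is Rbbp4/7_KD minus Rbbp7_KD on log2(abundance + 1), followed by its standard error. A gene was called when its adjusted p was below 0.05 in a limma fit over all 8 libraries and 12565 tested genes, those with a mean abundance of at least 10. Library totals lay between 11334107 and 12011829. Across genes, the Rbbp4/7_KD libraries correlated with each other at 0.946 and the Rbbp7_KD libraries at 0.965, against 0.941 to 0.948 between the groups. All 10 markers of the late morula that were examined, including Pou5f1, Cdx2 and Cdh1, were above 0 in every library.

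Rbbp4 (chromosome 4, 129307100 to 129335370, minus strand, GRCm38) was at 348 and 433 in the Rbbp4/7_KD libraries, against 4370 and 4467 in the Rbbp7_KD libraries. The log2 difference was −3.50 ± 0.15 (limma adjusted p = 1.9e-05), and the Rbbp4/7_KD mean was 8.84% of the Rbbp7_KD mean. Rbbp7 (X chromosome, 162760402 to 162779092, plus strand) was at 327 and 266 in the Rbbp4/7_KD libraries and at 298 and 293 in the Rbbp7_KD libraries, so these groups overlapped (log2 difference −0.00 ± 0.14, limma adjusted p = 0.995). For comparison, Rbbp7 stood at 6696 and 6295 in the Rbbp4_KD libraries and at 8399 and 7205 in the NC libraries. Both groups thus carried low Rbbp7 message at overlapping levels and differed in Rbbp4, as their labels say. Rbbp4 was above 0 in every library, so the comparison is between low and high Rbbp4, not between absence and presence.

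Adding the Rbbp4 siRNA changed few genes past the threshold. Of 12565 tested genes, 45 (0.358%) were called, 30 (0.239%) higher and 15 (0.119%) lower in Rbbp4/7_KD, with Rbbp4 among those that were lower. At an unadjusted p below 0.05 there were 1056 genes higher (8.4%) and 823 lower (6.55%), 1879 in all (15%). In 2903 genes (23.1%) both Rbbp4/7_KD libraries lay above both Rbbp7_KD libraries, and in 2920 (23.2%) below both, so groups that do not overlap are common here. A 2-fold difference was reached by 29 of the 30 genes that rose and by 10 of the 15 that fell, counting Gm12613, Btbd6 and Pomgnt2, which are listed at 0 in both libraries of a group. The calls lean on the spread pooled over all 4 groups: a fit to the 4 libraries of the comparison alone called 1 gene, Rbbp4. Rbbp4, Dcbld2 and Plau stayed called in each of the 8 fits that left out 1 library. Of the 45 calls, 35 were kept without NC replicate 1, 35 without NC replicate 2, 6 without Rbbp4_KD replicate 1, 5 without Rbbp4_KD replicate 2, 5 without Rbbp7_KD replicate 1, 4 without Rbbp7_KD replicate 2, 6 without Rbbp4/7_KD replicate 1 and 14 without Rbbp4/7_KD replicate 2. All 45 genes kept the sign of their difference in these fits.

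**Figure D1:**
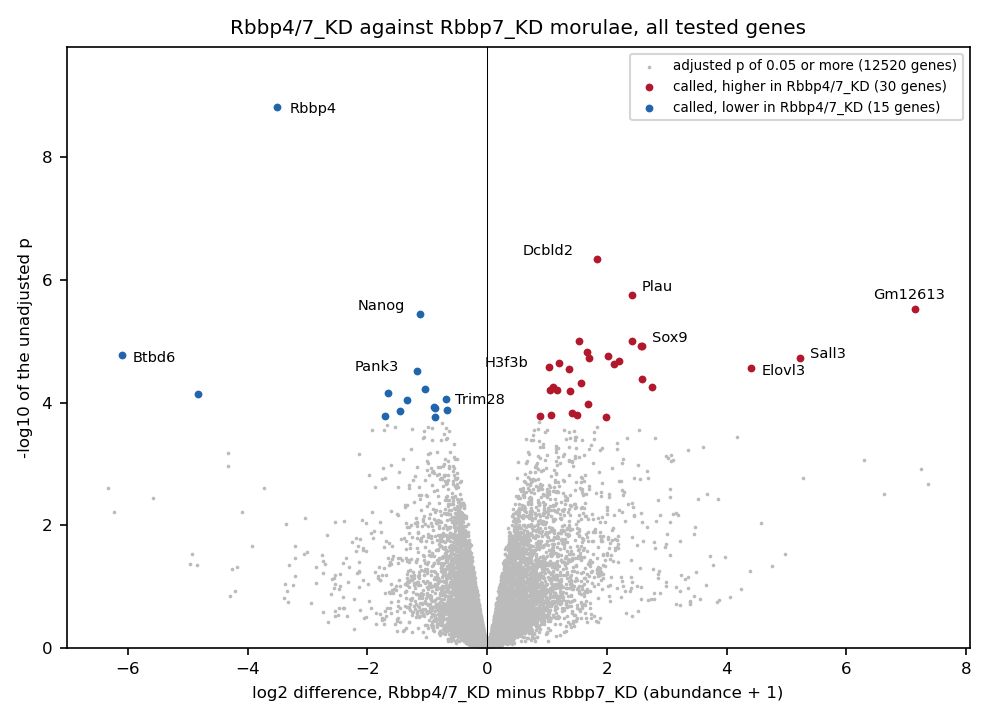
Each point is a tested gene, with its log2 difference between Rbbp4/7_KD and Rbbp7_KD on the x axis and −log10 of its unadjusted limma p on the y axis. Rbbp4 stands highest, the 30 called genes that were higher in Rbbp4/7_KD are red and the 15 that were lower are blue, and the rest of the 12565 genes are grey.

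The genes that rose most firmly encode a cell-surface receptor and a secreted protease. Dcbld2, which encodes a transmembrane protein with CUB and LCCL domains, was at 1722 and 1543 in Rbbp4/7_KD, against 420 and 493 in Rbbp7_KD. Its log2 difference was 1.84 ± 0.15 (limma adjusted p = 0.00291). Both Rbbp4/7_KD libraries lay far above both Rbbp7_KD libraries. Its exons overlap those of St3gal6 on the other strand, and with strand use in counting not stated their reads cannot be told apart. St3gal6 itself was at 160 and 168 in Rbbp4/7_KD, against 64.8 and 103 in Rbbp7_KD (limma adjusted p = 0.162). Plau encodes urokinase, the protease that activates plasminogen, and was at 2456 and 3660 in Rbbp4/7_KD, against 495 and 639 in Rbbp7_KD (log2 difference 2.41 ± 0.23, limma adjusted p = 0.00732). With 1 library left out, the adjusted p ranged from 0.00669 to 0.0254 for Dcbld2 and from 0.00642 to 0.0366 for Plau.

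Sox9, a transcription factor of many organ primordia, was at 338 and 290 in Rbbp4/7_KD, against 45.9 and 58.5 in Rbbp7_KD. This was a log2 difference of 2.57 ± 0.30 (limma adjusted p = 0.0167), with the groups well apart. Sall3, a zinc-finger transcription factor of the spalt family, was at 257 and 94.4 in Rbbp4/7_KD, against 4.75 and 2.09 in Rbbp7_KD. The Sall3 difference was the largest among called genes above 0 in all 4 libraries (5.22 ± 0.65, limma adjusted p = 0.0169), although the Rbbp4/7_KD libraries differed from each other as well. Elovl3, a fatty acid elongase of very long chains, was at 196 and 159 in Rbbp4/7_KD, against 8.72 and 6.25 in Rbbp7_KD (log2 difference 4.40 ± 0.57, limma adjusted p = 0.0177). Elovl3 exons overlap those of Pitx3 on the other strand. Lgals9, which encodes the sugar-binding protein galectin-9, was at 505 and 266 in Rbbp4/7_KD, against 62.1 and 58.4 in Rbbp7_KD (log2 difference 2.58 ± 0.30, limma adjusted p = 0.0167). With 1 library left out, the highest adjusted p was 0.106 for Sox9, 0.123 for Sall3, 0.137 for Elovl3 and 0.118 for Lgals9. Of the 8 fits with 1 library left out, the call was kept in 2 for Sox9 and Elovl3 and in 3 for Sall3 and Lgals9, in each case including those without NC replicate 1 or 2.

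H3f3b, which encodes the replacement histone H3.3 named in the series title, also rose. H3.3 is deposited outside of DNA replication, and both H3f3a and H3f3b encode the same protein. H3f3b was at 12632 and 13024 in Rbbp4/7_KD, against 5671 and 6894 in Rbbp7_KD, a log2 difference of 1.04 ± 0.13 (limma adjusted p = 0.0177). Its level in Rbbp4_KD was 7184 and 8728 and in NC 6557 and 6874, so the Rbbp4/7_KD libraries stood above all 6 others. H3f3a was at 7833 and 6723 in Rbbp4/7_KD, against 5479 and 5481 in Rbbp7_KD, and did not pass (0.41 ± 0.14, limma adjusted p = 0.215). Reads of both genes could be split with near-identical annotated copies, 2 for H3f3b and 15 for H3f3a, of which 1 and 4 were in the table. With 1 library left out, the highest adjusted p for H3f3b was 0.109. None of the other 20 tested genes for H3 chaperones passed the threshold: over the list of 22, 7 differences were above 0 and 15 below.

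The other genes that rose have varied roles. Cubn, the endocytic receptor cubilin, was at 755 and 804 in Rbbp4/7_KD, against 303 and 375 in Rbbp7_KD (1.21 ± 0.15, limma adjusted p = 0.0171). Gk, which encodes glycerol kinase, was at 394 and 299 in Rbbp4/7_KD, against 87.3 and 80.0 in Rbbp7_KD (2.02 ± 0.25, limma adjusted p = 0.0169). Slc37a2, a transporter of sugar phosphates, was at 367 and 479 in Rbbp4/7_KD, against 127 and 136 in Rbbp7_KD. Wipi1, an autophagy protein that binds phosphoinositides, was at 126 and 105 in Rbbp4/7_KD, against 19.7 and 13.4 in Rbbp7_KD. Avil, an actin-binding protein of the villin family, was at 128 and 102 in Rbbp4/7_KD, against 18.6 and 17.7 in Rbbp7_KD. In each of these the groups were well separated. Exons of Avil overlap those of Tsfm on the other strand, so their reads cannot be told apart. Vav1, a guanine nucleotide exchange factor known from blood cells, was at 421 and 478 in Rbbp4/7_KD, against 88.8 and 118 in Rbbp7_KD (2.12 ± 0.27, limma adjusted p = 0.0171). The remaining rises under the naming rule were Micall2, a junction-associated protein (1.98), Zfp326, a zinc-finger protein linked to splicing (1.70), Arrdc3, an arrestin-like trafficking adaptor (1.69), and BC051019 (2.43), each as a log2 difference. Exons of BC051019 overlap those of Akip1 on the other strand. With 1 library left out, the highest adjusted p of the genes in this paragraph lay between 0.105 for Cubn and 0.213 for Micall2.

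Markers of other cells were looked at beside these rises. Of 14 cumulus and granulosa markers, 6 were in the table, and their summed abundance was 284 and 206 in Rbbp4/7_KD, against 162 and 99.8 in Rbbp7_KD. Amhr2 made up the largest share, at 145 and 87.1 in Rbbp4/7_KD, against 113 and 58.0 in Rbbp7_KD, and Foxl2 was at 101 and 74.4 in Rbbp4/7_KD, against 16.6 and 19.8 in Rbbp7_KD (log2 difference 2.20 ± 0.51, limma adjusted p = 0.0993). Inha stayed at 3.71 or less in every library. Of 10 blood markers, 6 were in the table and summed to 353 and 348 in Rbbp4/7_KD, against 275 and 145 in Rbbp7_KD. Cd68 supplied nearly all of it, at 329 and 317 in Rbbp4/7_KD, against 261 and 137 in Rbbp7_KD. Fibroblast and muscle markers (4 of 8 in the table) summed to 39.3 and 78.8 in Rbbp4/7_KD, against 54.6 and 37.5 in Rbbp7_KD. Of 12 sperm markers, 8 were in the table and summed to 1304 and 1376 in Rbbp4/7_KD, against 1845 and 1660 in Rbbp7_KD. Odf2 supplied nearly all of it, at 1293 and 1367 in Rbbp4/7_KD, against 1838 and 1656 in Rbbp7_KD. The protamine Prm1 was at 0 and 3.68 in Rbbp4/7_KD, against 0 and 1.05 in Rbbp7_KD. Prm2 was at 0 and 0 in Rbbp4/7_KD, against 3.18 and 0 in Rbbp7_KD. The part of such cells in the rises was not tested. In bulk libraries, fewer cells of a type and less RNA per cell cannot be told apart.

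Nanog, the transcription factor of naive pluripotency, had the smallest p among the genes that fell other than Rbbp4. It was at 4192 and 4692 in Rbbp4/7_KD, against 9093 and 10156 in Rbbp7_KD, a log2 difference of −1.11 ± 0.11 (limma adjusted p = 0.00916). The Rbbp4_KD libraries had 6545 and 6051 and the NC libraries 6698 and 6322. Nanog was therefore highest in Rbbp7_KD and lowest in Rbbp4/7_KD, with both other groups in between. Among the fits with 1 library left out, the call ended only without Rbbp7_KD replicate 2, where the adjusted p was 0.108. Pou5f1, another core pluripotency factor, picked here after its values were seen, was at 15910 and 13735 in Rbbp4/7_KD, against 17835 and 16019 in Rbbp7_KD, and was not called (−0.19 ± 0.14, limma adjusted p = 0.565).

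Several genes of metabolism and organelles fell. Pank3, a pantothenate kinase at the first step of coenzyme A synthesis, was at 4732 and 4058 in Rbbp4/7_KD, against 10004 and 9654 in Rbbp7_KD (−1.17 ± 0.15, limma adjusted p = 0.0185). Mfn2, a GTPase of mitochondrial fusion, was at 312 and 302 in Rbbp4/7_KD, against 666 and 605 in Rbbp7_KD (−1.05 ± 0.15, limma adjusted p = 0.028). The Rbbp4/7_KD mean was 44.7% of the Rbbp7_KD mean for Pank3 and 48.3% for Mfn2. Slc41a1, a magnesium transporter, was at 44.6 and 59.6 in Rbbp4/7_KD, against 193 and 152 in Rbbp7_KD. Prkcsh, a subunit of the glycoprotein-trimming glucosidase II, was at 580 and 678 in Rbbp4/7_KD, against 1253 and 1081 in Rbbp7_KD. St6galnac2, a sialyltransferase, was at 332 and 364 in Rbbp4/7_KD, against 658 and 615 in Rbbp7_KD. Its exons overlap another annotated entry of the same name on the same strand, so reads may be split between them. With 1 library left out, the highest adjusted p of these genes lay between 0.139 for Pank3 and 0.238 for Slc41a1.

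Trim28, the corepressor that zinc-finger proteins recruit to retroelements and imprinted loci, was at 7157 and 6402 in Rbbp4/7_KD, against 11056 and 10537 in Rbbp7_KD (−0.67 ± 0.11, limma adjusted p = 0.0453). Jun, a subunit of the AP-1 factor, was at 595 and 590 in Rbbp4/7_KD, against 1109 and 1050 in Rbbp7_KD (−0.86 ± 0.14, limma adjusted p = 0.0424). Nr4a1, an orphan nuclear receptor induced as an immediate early gene, was at 96.0 and 113 in Rbbp4/7_KD, against 283 and 245 in Rbbp7_KD (−1.33 ± 0.20, limma adjusted p = 0.034). In these 3 genes every Rbbp4/7_KD library lay below every Rbbp7_KD library, and each call ended with any 1 of the 8 libraries left out (highest adjusted p of 0.222 for Trim28, 0.211 for Jun and 0.198 for Nr4a1). Btrc, the substrate receptor of an SCF ubiquitin ligase, fell by 0.69 on the log2 scale, and Ankrd50, an endosomal recycling protein, was at 88.6 and 93.2 in Rbbp4/7_KD, against 260 and 320 in Rbbp7_KD. Dok1, a docking protein below tyrosine kinases, fell by 1.45.

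Btbd6, which encodes a BTB-domain protein, was listed at 0 in both Rbbp4/7_KD libraries, against 56.2 and 81.3 in the Rbbp7_KD libraries. Pomgnt2, a glycosyltransferase that modifies dystroglycan, was also listed at 0 in both Rbbp4/7_KD libraries, against 30.1 and 25.0 in the Rbbp7_KD libraries. Both were called lower (limma adjusted p = 0.0169 for Btbd6 and 0.0292 for Pomgnt2), and no fold is given for them. Across the tested genes, 6 were at 0 in both Rbbp4/7_KD libraries while at 20 or more in both Rbbp7_KD libraries, and 6 showed the opposite pattern. Between Rbbp4_KD and NC, 3 genes were at 0 in both Rbbp4_KD libraries while at 20 or more in both NC libraries, and 4 showed the opposite.

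**Figure D2:**
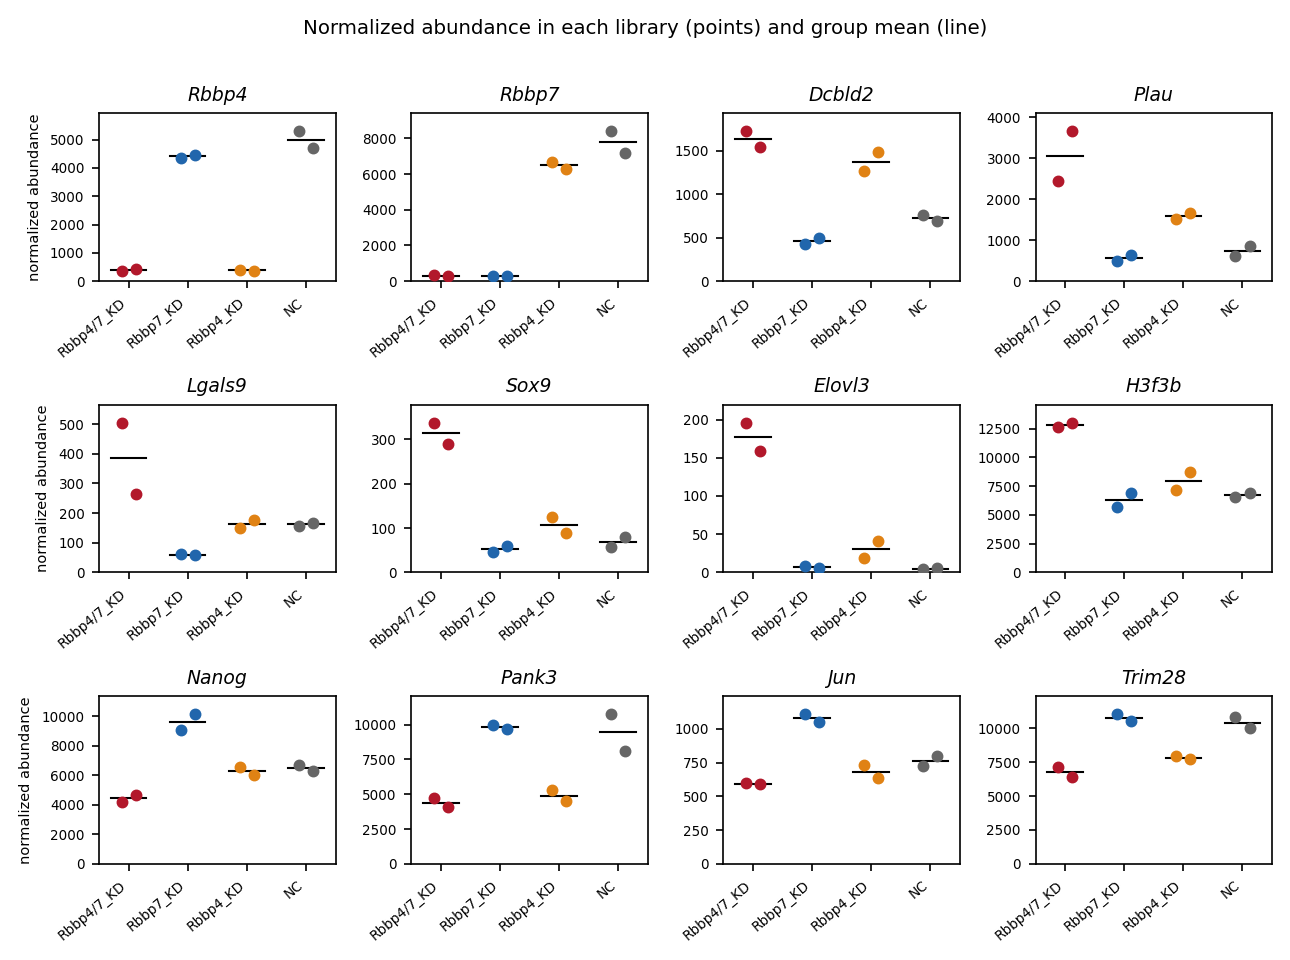
Normalized abundance (y axis, linear from 0) of 12 genes in each library, with groups along the x axis, points for libraries and a line for the mean of 2 libraries. Rbbp7 is low in both Rbbp4/7_KD and Rbbp7_KD, H3f3b is highest in Rbbp4/7_KD, and Nanog is lowest in Rbbp4/7_KD and highest in Rbbp7_KD.

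An siRNA against Rbbp4 was also given to embryos without Rbbp7 siRNA, and Rbbp4_KD minus NC shares no library with Rbbp4/7_KD minus Rbbp7_KD. Rbbp4 itself had a log2 difference of −3.50 with Rbbp7 siRNA and of −3.75 without it, and in Rbbp4_KD minus NC 3 genes (0.0239%) were called in all, with 736 (5.86%) at an unadjusted p below 0.05. That count of 3 was 35 without NC replicate 2 and 6 without Rbbp4_KD replicate 2. The mean within-group variance on the log2 scale was 0.415 in NC, 0.232 in Rbbp4_KD, 0.236 in Rbbp7_KD and 0.335 in Rbbp4/7_KD. NC replicate 1 also had the most genes listed at 0 of any library, 3937. The smaller count without Rbbp7 siRNA is therefore not read as a smaller effect. Of the 30 genes that rose in Rbbp4/7_KD, 28 had a difference above 0 in Rbbp4_KD minus NC. Of the 14 that fell besides Rbbp4, 13 had a difference below 0 there. Over all tested genes 57.6% had the same sign in both. The median log2 difference of the 30 was 1.69 in Rbbp4/7_KD minus Rbbp7_KD and 0.442 in Rbbp4_KD minus NC, and that of the 14 was −1.14 in Rbbp4/7_KD minus Rbbp7_KD and −0.286 in Rbbp4_KD minus NC. Since these genes were chosen by their difference in Rbbp4/7_KD, the larger size there is not a result. The difference between the contrasts was tested directly as an interaction, which called 1 gene of 12565 (0.00796%), Ndufa9, with 815 (6.49%) at an unadjusted p below 0.05. The interaction called 21 genes without NC replicate 2, 6 without Rbbp7_KD replicate 1, 4 without Rbbp4/7_KD replicate 1, 3 without Rbbp4/7_KD replicate 2, 3 without Rbbp4_KD replicate 2 and 2 without Rbbp4_KD replicate 1.

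Mfn2 was at 377 and 351 in Rbbp4_KD, against 701 and 798 in NC, a log2 difference of −1.04, beside −1.05 with Rbbp7 siRNA (interaction −0.01, limma adjusted p = 0.996). Pank3 was at 5276 and 4495 in Rbbp4_KD, against 10759 and 8125 in NC (−0.94; interaction −0.22, limma adjusted p = 0.875). Neither was called in Rbbp4_KD. Dcbld2 was at 1264 and 1484 in Rbbp4_KD, against 755 and 689 in NC (0.92), and Plau was at 1513 and 1671 in Rbbp4_KD, against 614 and 851 in NC (1.14). Nanog had a log2 difference of −0.05 in Rbbp4_KD minus NC, and its interaction of −1.07 did not pass (limma adjusted p = 0.369). Lgals9 was at 150 and 178 in Rbbp4_KD, against 158 and 168 in NC, and its interaction of 2.58 did not pass either (limma adjusted p = 0.406). Gk was the only rule-named rise below 0 in Rbbp4_KD minus NC, at −0.22 (interaction 2.25, limma adjusted p = 0.369).

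The NC mean lay between Rbbp4/7_KD and Rbbp7_KD for 24 of the 30 genes that rose and for 10 of the 14 that fell besides Rbbp4. For 5 of the rises and 4 of the falls it lay on the Rbbp7_KD side. These genes were chosen for a gap between Rbbp4/7_KD and Rbbp7_KD, which makes a position in between more likely. The counts are therefore not a result, and the share over all tested genes was not counted. Klhdc7a, a kelch-domain gene picked here after its values were seen, was at 987 and 741 in Rbbp4/7_KD, against 296 and 296 in Rbbp7_KD, with 296 and 276 in NC. Its sequence is shared in part with 4933427I04Rik, so reads may be split between them. Tmem64, also picked after its values were seen, was the single rise with NC on the Rbbp4/7_KD side, at 2104 and 1564 in Rbbp4/7_KD, 729 and 684 in Rbbp7_KD, and 1917 and 1774 in NC.

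**Figure D3:**
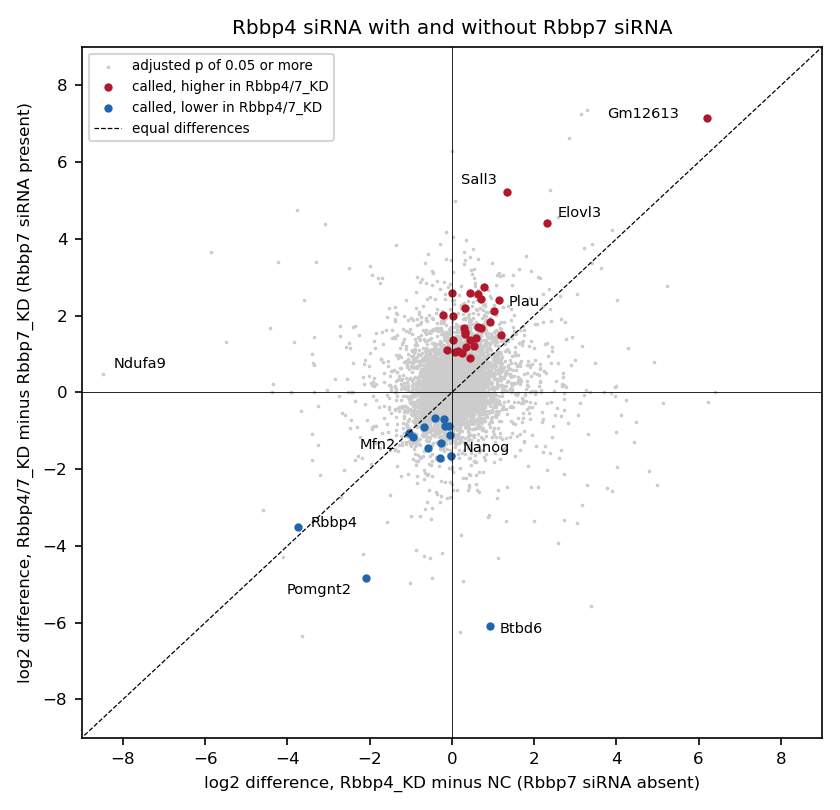
Log2 difference of each tested gene in Rbbp4/7_KD minus Rbbp7_KD (y axis) against Rbbp4_KD minus NC (x axis), with called genes of the first comparison in red (higher) and blue (lower) and a dashed line where both are equal. Rbbp4 and Mfn2 lie near the dashed line and Nanog near the vertical axis, while the labelled genes Gm12613, Btbd6, Pomgnt2 and Ndufa9 are listed at 0 in at least 1 group, so that their position depends on the added 1.

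Genes of G2 and mitosis mostly had small differences below 0. None of the 64 listed genes passed the threshold; 55 had a log2 difference below 0 and 9 above, and the median was −0.263, beside −0.0138 over all tested genes, of which 48.2% were above 0. At an unadjusted p below 0.05, 23 of the 64 were lower and 1 higher. The median stayed between −0.300 and −0.177 with any 1 library left out. Top2a, the topoisomerase that untangles chromosomes, was at 2654 and 2688 in Rbbp4/7_KD, against 3826 and 3794 in Rbbp7_KD (−0.51 ± 0.10, limma adjusted p = 0.0776). Kif23, a kinesin of cytokinesis, was at 1977 and 1968 in Rbbp4/7_KD, against 2865 and 3001 in Rbbp7_KD (−0.57 ± 0.12, limma adjusted p = 0.0843). Cenpa, the centromeric histone H3, was at 667 and 974 in Rbbp4/7_KD, against 1350 and 1443 in Rbbp7_KD (−0.79 ± 0.18, limma adjusted p = 0.0985). The mitotic kinase Cdk1 was at 2113 and 2308 in Rbbp4/7_KD, against 3233 and 3086 in Rbbp7_KD (−0.52 ± 0.16, limma adjusted p = 0.171), and Mki67, a marker of cycling cells, overlapped between the groups (−0.26 ± 0.16). In Rbbp4_KD minus NC the median of the list was −0.13. The 52 genes of DNA replication and S phase had a median of −0.031, with 20 above 0 and 32 below; the median was −0.0728 without Rbbp4/7_KD replicate 1, −0.0505 without Rbbp4/7_KD replicate 2 and −0.0526 without Rbbp7_KD replicate 1.

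MuvB, the complex that contains RBBP4, is known to act at a promoter element with the letters TTTGAA, the cell cycle genes homology region. RefSeq promoter windows (GRCm38.p6, 250 bases before to 50 after the start) were available for 53 of the 64 genes, and 71.4% of their 56 windows held TTTGAA on either strand, against 11.9% of 12103 windows of all tested genes. CCAAT was in 71.4% of the windows, against 38.2%. The list was written from general knowledge, so these shares describe the list and not these libraries. The 37 genes of the list with TTTGAA had a median log2 difference of −0.321, and 2 of them were above 0; the 16 without it had −0.194 and 4 above 0. Over all tested genes the medians were −0.0446 with the letters and −0.0194 without. Of the windows of the called genes, 2 of 24 among the rises (8.33%) and 2 of 16 among the falls besides Rbbp4 (12.5%) held them. The E2F-type letters TTTCGCGC, TTTGGCGC and TTTCCCGC were also searched on both strands, and 0 of the 24 and 0 of the 16 windows held any, beside 0.644%, 0.934% and 1.98% of all windows. The windows of the 3 genes with the smallest p in the list are shown on the gene's own strand, with TTTGAA or its reverse complement TTCAAA in capitals.
Top2a chr11:99024140-99024439: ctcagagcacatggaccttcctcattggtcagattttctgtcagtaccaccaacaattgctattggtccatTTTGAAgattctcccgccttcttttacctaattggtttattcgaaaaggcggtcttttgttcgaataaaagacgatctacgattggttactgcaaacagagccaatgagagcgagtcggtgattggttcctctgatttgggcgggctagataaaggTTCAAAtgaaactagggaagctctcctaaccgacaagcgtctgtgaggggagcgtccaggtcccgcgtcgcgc
Kif23 chr9:61946750-61947049: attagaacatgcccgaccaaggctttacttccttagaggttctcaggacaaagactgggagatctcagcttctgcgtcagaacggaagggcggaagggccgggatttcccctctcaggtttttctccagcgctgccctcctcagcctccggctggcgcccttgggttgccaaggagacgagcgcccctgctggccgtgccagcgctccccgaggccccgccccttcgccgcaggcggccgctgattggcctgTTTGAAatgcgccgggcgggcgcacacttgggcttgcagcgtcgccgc
Cenpa chr5:30666636-30666935: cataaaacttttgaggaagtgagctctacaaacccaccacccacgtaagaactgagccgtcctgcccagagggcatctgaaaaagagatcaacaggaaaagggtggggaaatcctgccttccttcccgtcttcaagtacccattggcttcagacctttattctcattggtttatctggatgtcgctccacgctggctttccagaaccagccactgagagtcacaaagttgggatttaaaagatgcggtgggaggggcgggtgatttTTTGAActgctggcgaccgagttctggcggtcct
In Top2a the element lies 179 bases before the RefSeq start and, reversed, 23 bases before it. In Kif23 and Cenpa it lies 3 and 17 bases past the start. A match is a description of the letters and not a bound site.

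In a list of germ cell genes known for silencing by DNA methylation, 64.1% had differences above 0, beside 48.2% of all tested genes. Methylation was not measured here, and the list also holds Zfp42, which is in the pluripotency list as well. Of the 45 listed in the table, 6 did not pass the abundance filter. None of the 39 passed the threshold, 25 were above 0 and 14 below, and the median was 0.313; it lay between 0.109 (without Rbbp4/7_KD replicate 1) and 0.391 with 1 library left out and was 0.196 after quantile normalization. Sycp1, a protein of the synaptonemal complex that holds meiotic chromosomes together, was at 339 and 389 in Rbbp4/7_KD, against 101 and 169 in Rbbp7_KD (1.47 ± 0.27, limma adjusted p = 0.0588). Sohlh2, a transcription factor of early germ cells, was at 180 and 233 in Rbbp4/7_KD, against 52.3 and 89.7 in Rbbp7_KD (1.57 ± 0.36, limma adjusted p = 0.0971). Sycp3, another protein of the synaptonemal complex, was at 339 and 438 in Rbbp4/7_KD, against 179 and 233 in Rbbp7_KD (0.91 ± 0.22, limma adjusted p = 0.11). For each of these 3 the groups did not overlap. Exons of Sycp3 overlap those of Chpt1 on the other strand. CACGTG, the E-box that the repressor PRC1.6 is known to recognise at such promoters through MGA and its partner MAX, was in 37.2% of the 43 windows of 37 germline genes, against 10.1% of all windows, 4.17% of those of the rises and 6.25% of those of the falls besides Rbbp4. The 13 genes with it had a median log2 difference of 0.563, with 11 above 0, and the 24 without it 0.0196, with 13 above 0. Over all tested genes the medians were −0.0114 with CACGTG and −0.0238 without. None of the germline genes was called, and a part of the E-box or of PRC1.6 in these differences was not tested. Here too the share of windows describes the list, which was written from general knowledge, and not these libraries. Among list members with CACGTG in a window, Sycp1 and Sycp3 had the smallest p, and their windows are printed with it in capitals. Sohlh2 had no such window.
Sycp1 chr3:102936051-102936350: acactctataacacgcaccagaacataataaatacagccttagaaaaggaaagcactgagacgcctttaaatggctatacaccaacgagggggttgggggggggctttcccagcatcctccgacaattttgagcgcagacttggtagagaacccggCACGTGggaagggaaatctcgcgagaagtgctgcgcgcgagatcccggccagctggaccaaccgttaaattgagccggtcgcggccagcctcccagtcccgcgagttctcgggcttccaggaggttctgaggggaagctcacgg
Sycp3 chr10:88459337-88459636: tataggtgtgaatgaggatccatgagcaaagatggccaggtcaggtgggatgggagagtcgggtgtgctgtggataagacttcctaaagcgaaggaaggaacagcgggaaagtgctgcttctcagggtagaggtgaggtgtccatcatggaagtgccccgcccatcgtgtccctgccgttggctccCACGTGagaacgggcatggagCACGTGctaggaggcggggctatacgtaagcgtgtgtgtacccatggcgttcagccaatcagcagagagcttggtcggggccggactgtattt
The E-box begins 94 bases before the start in Sycp1, and 64 and 43 bases before it in Sycp3.

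**Figure D4:**
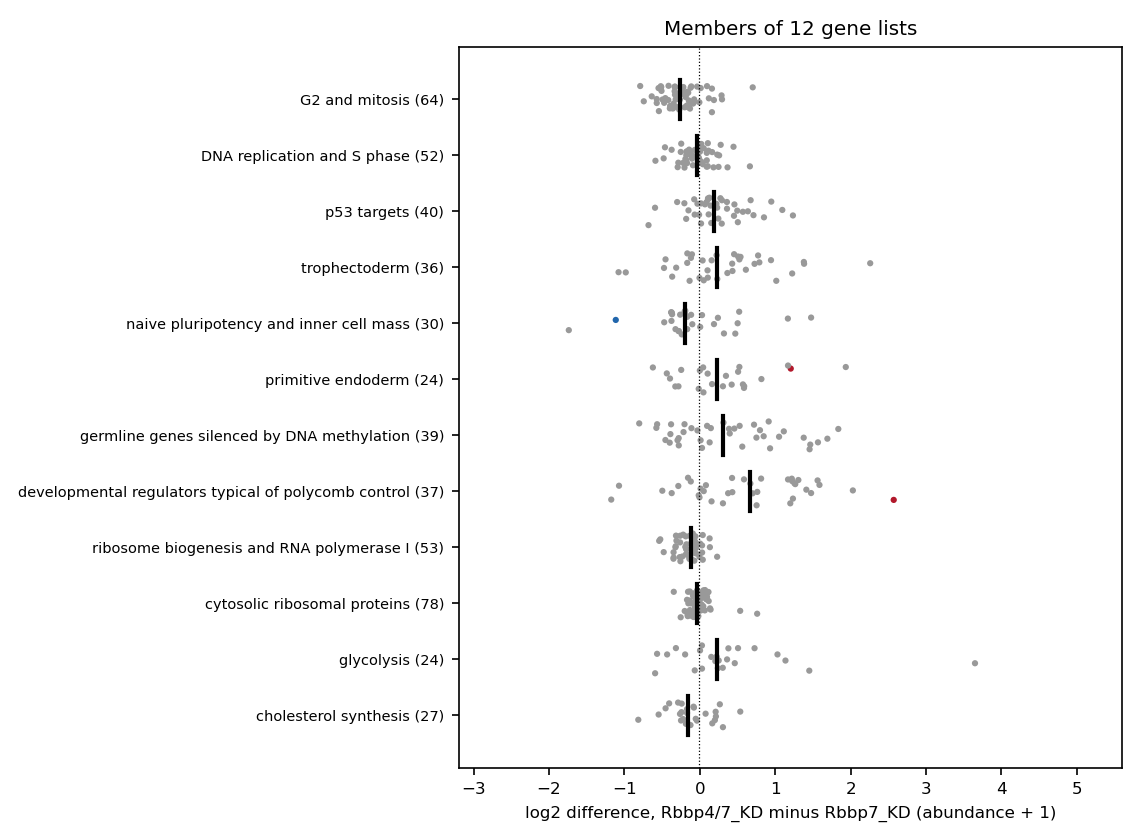
Log2 difference (x axis) of every tested member of 12 gene lists, with the number of tested members in parentheses, a bar at each list's median and a dotted line at the median of all tested genes, −0.0138. Called members are red (higher) or blue (lower), and the rest are grey; the medians of G2 and mitosis (−0.263) and of the germline list (0.313) lie on opposite sides of the dotted line.

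In the list of trophectoderm genes, 24 of 36 differences were above 0 and 12 below, with a median of 0.227 and no call. Regulators of the lineage went both ways, none of them called: Eomes, a T-box factor picked here after its values were seen, was at 148 and 250 in Rbbp4/7_KD, against 44.7 and 149 in Rbbp7_KD (1.23 ± 0.50, limma adjusted p = 0.297). Elf5, Arid3a and Tfap2a, picked likewise, differed by 1.01 ± 0.87, 0.54 ± 0.24 and 0.37 ± 0.51. Klf5 (−0.17 ± 0.11), Tead4 (−0.17 ± 0.14), Tfap2c (−0.10 ± 0.13) and Ets2 (−0.37 ± 0.47), also picked likewise, were below 0. Cdx2 was at 1409 and 1195 in Rbbp4/7_KD, against 1700 and 1914 in Rbbp7_KD (−0.48 ± 0.21, limma adjusted p = 0.323), and Gata3 overlapped between the groups. Among genes of the differentiated epithelium, Cdh3, which encodes P-cadherin, was at 349 and 390 in Rbbp4/7_KD, against 175 and 114 in Rbbp7_KD (1.38 ± 0.25, limma adjusted p = 0.0588). Enpep, a surface aminopeptidase, was at 1029 and 1317 in Rbbp4/7_KD, against 681 and 680 in Rbbp7_KD (0.77 ± 0.14, limma adjusted p = 0.0588). Plet1, a surface protein of placental progenitors, went the other way, at 278 and 340 in Rbbp4/7_KD, against 541 and 780 in Rbbp7_KD (−1.08 ± 0.20, limma adjusted p = 0.0588). For the keratins, Krt8 was at 3326 and 4333 in Rbbp4/7_KD, against 2400 and 2575 in Rbbp7_KD (0.61 ± 0.19, limma adjusted p = 0.182). Krt18 differed by 0.43 ± 0.19 and Krt19 by 2.26 ± 0.57, neither past the threshold. In NC, Krt8 was at 4742 and 6945 and Krt18 at 3300 and 4116, above every Rbbp4/7_KD and Rbbp7_KD library. Fabp3, a fatty acid carrier of the trophectoderm, differed by 0.43 ± 0.15, and Id2, an inhibitor of helix-loop-helix factors, by −0.45 ± 0.21, also without a call.

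Nanog was the single call among 30 tested genes of naive pluripotency and the inner cell mass, of which 10 were above 0 and 20 below, with a median of −0.195, which was −0.079 without Rbbp4/7_KD replicate 2. Fgf4, the growth factor that inner cells send to primitive endoderm, was at 209 and 99.2 in Rbbp4/7_KD, against 605 and 385 in Rbbp7_KD (−1.74 ± 0.37, limma adjusted p = 0.0846). The groups were apart, and Rbbp7_KD was again above the 177 and 150 of NC. Sox2 overlapped between the groups, at 67.5 and 120 in Rbbp4/7_KD, against 61.8 and 205 in Rbbp7_KD. Cubn was the call among 24 primitive endoderm genes, of which 16 were above 0; their median of 0.234 was 0.00675 without Rbbp7_KD replicate 1, 0.434 without Rbbp7_KD replicate 2 and 0.0639 without Rbbp4/7_KD replicate 1. Lrp2, the partner of cubilin in endocytosis, was at 17338 and 16698 in Rbbp4/7_KD, against 10437 and 13401 in Rbbp7_KD (0.52 ± 0.14, limma adjusted p = 0.147). Of the 34 genes for lysosomes and apical endocytosis, 20 were above 0, among them the sialidase gene Neu1 (0.94 ± 0.18, limma adjusted p = 0.0654) and the lysosomal membrane gene Lamp2 (0.62 ± 0.16, limma adjusted p = 0.122).

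Developmental regulators typical of polycomb control were mostly near the detection limit. Of 82 listed genes in the table only 37 passed the abundance filter, and a gene can pass it through the higher group alone, so their count of 28 above 0 and median of 0.67 are given without weight; the median was 0.162 without Rbbp4/7_KD replicate 1 and 0.31 without Rbbp7_KD replicate 1. Sox9 was the call. Foxc1, a forkhead factor of mesoderm, was at 203 and 122 in Rbbp4/7_KD, against 66.5 and 59.5 in Rbbp7_KD (1.31 ± 0.33, limma adjusted p = 0.121). Zic5, a zinc-finger factor of neural development, was at 58.1 and 50.8 in Rbbp4/7_KD, against 13.7 and 11.5 in Rbbp7_KD (2.03 ± 0.52, limma adjusted p = 0.122). Cdkn2b, which encodes a cyclin-dependent kinase inhibitor and was picked after its values were seen, was at 56.9 and 63.0 in Rbbp4/7_KD, against 22.2 and 16.7 in Rbbp7_KD (1.59 ± 0.43, limma adjusted p = 0.146).

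Of the genes for partners of RBBP4 and RBBP7, those of the deacetylases of NuRD and SIN3 came closest to the threshold, with differences of opposite sign. In NuRD, 11 of 15 genes were below 0, the siRNA target Rbbp4 included, and Rbbp4 was the only call. The median of −0.219 was −0.0165 without Rbbp4/7_KD replicate 2, −0.358 without Rbbp4/7_KD replicate 1 and −0.118 without Rbbp7_KD replicate 1. Hdac1, a deacetylase catalytic subunit, was at 3779 and 3910 in Rbbp4/7_KD, against 5519 and 5804 in Rbbp7_KD (−0.56 ± 0.11, limma adjusted p = 0.0645), whereas its paralog Hdac2 was at 3616 and 3953 in Rbbp4/7_KD, against 2110 and 2482 in Rbbp7_KD (0.72 ± 0.13, limma adjusted p = 0.0588). Neither passed, and in each the groups were apart. After quantile normalization Hdac2 passed at a limma adjusted p of 0.0444. Hdac1 shares near-identical sequence with 2 annotated genes, so its reads may be split among copies. Chd4, the NuRD helicase, differed by −0.50 ± 0.14 (limma adjusted p = 0.147) and Cdk2ap1, a small NuRD subunit picked after its values were seen, by 0.69 ± 0.14 (limma adjusted p = 0.0749). In PRC2, Mtf2, an accessory subunit, differed by −0.45 ± 0.11 (limma adjusted p = 0.0998) and Ezh2, the methyltransferase, by −0.35 ± 0.12 (limma adjusted p = 0.224). Trim28 was the call among 16 genes of DNA methylation and TET oxidation, of which 11 were below 0. Besides Rbbp4, no gene of the lists for PRC2, SIN3, MuvB, or NURF, CAF-1 and HAT1 was called.

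Of 40 tested p53 targets, 30 were above 0 and 10 below, with a median of 0.186 and no call; the median was 0.283 without Rbbp4/7_KD replicate 2 and 0.108 without Rbbp7_KD replicate 2. Pmaip1, which encodes the apoptosis inducer NOXA, was at 1338 and 1125 in Rbbp4/7_KD, against 760 and 818 in Rbbp7_KD (0.64 ± 0.14, limma adjusted p = 0.0931). Ddit4l, an inhibitor of mTOR signalling, differed by 0.85 ± 0.18 (limma adjusted p = 0.0865). Tigar, a phosphatase that slows glycolysis, was at 1641 and 1547 in Rbbp4/7_KD, against 2685 and 2431 in Rbbp7_KD (−0.68 ± 0.13, limma adjusted p = 0.0588). Mdm2 differed by 0.27 ± 0.13, and Cdkn1a, the p21 gene, overlapped between the groups (0.13 ± 0.21). Ccnd1, the G1 cyclin D1, was at 280 and 212 in Rbbp4/7_KD, against 190 and 118 in Rbbp7_KD (0.70 ± 0.36, limma adjusted p = 0.404).

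In metabolism, Elovl3 was the call among 26 genes of fatty acid synthesis and elongation, of which 18 were above 0. Ldha, the lactate dehydrogenase subunit, was at 1290 and 1846 in Rbbp4/7_KD, against 814 and 701 in Rbbp7_KD (1.03 ± 0.25, limma adjusted p = 0.105). Of the 24 glycolysis genes 18 were above 0, but their median of 0.23 was 0.00176 without Rbbp4/7_KD replicate 2 and 0.401 without Rbbp4/7_KD replicate 1. Ribosome biogenesis had 45 of 53 genes below 0 with a median of −0.114, or −0.214 without Rbbp4/7_KD replicate 1, led by Tcof1, a nucleolar factor of ribosomal RNA transcription, at 2032 and 1887 in Rbbp4/7_KD, against 2950 and 2746 in Rbbp7_KD (−0.54 ± 0.11, limma adjusted p = 0.0776). The 78 cytosolic ribosomal protein genes had a median of −0.0341, which turned to 0.0408 after quantile normalization and was −0.00653 without Rbbp4/7_KD replicate 1 and −0.068 without Rbbp4/7_KD replicate 2. Oxidative phosphorylation had 37 nuclear genes above 0 and 38 below. Cholesterol synthesis had a median of −0.156, which was 0.0398 without Rbbp4/7_KD replicate 1, −0.236 without Rbbp4/7_KD replicate 2 and −0.0516 without Rbbp7_KD replicate 2. Of the immediate early genes, Jun and Nr4a1 fell, while Dusp1, a phosphatase of MAP kinases, differed by 1.48 ± 0.27 (limma adjusted p = 0.0588); 9 of 17 were above 0. In the list of interferon factors and nucleic acid sensors, 29 genes were in the table and 14 were tested, of which 11 were above 0 and none was called. Their median of 0.308 was 0.0605 without Rbbp7_KD replicate 1 and 0.0952 without Rbbp4/7_KD replicate 2. Irf3, a sensor-driven interferon factor, was at 38.1 and 44.7 in Rbbp4/7_KD, against 86.7 and 129 in Rbbp7_KD (−1.34 ± 0.36, limma adjusted p = 0.14). Oas1a and Oas1g, sensors of double-stranded RNA whose near-identical sequence may split reads, went the other way. Oas1a was at 47.4 and 23.5 in Rbbp4/7_KD, against 7.13 and 15.6 in Rbbp7_KD (1.57 ± 0.62, limma adjusted p = 0.285), and Oas1g was at 20.9 and 24.9 in Rbbp4/7_KD, against 5.30 and 7.00 in Rbbp7_KD (1.75 ± 0.73, limma adjusted p = 0.304).

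No gene was called in the remaining lists. Of 44 genes for junctions, polarity and cavitation, 23 were above 0 and 21 below, with a median of 0.0374, which was 0.0744 without Rbbp4/7_KD replicate 1 and 0.0106 without Rbbp7_KD replicate 2. Of 29 tested genes of the 2-cell stage 21 were above 0 (median 0.247), and of 19 maternal transcripts 11 (median 0.188), but 11 and 25 genes of these lists in the table did not pass the abundance filter. The 2-cell median was 0.521 without Rbbp4/7_KD replicate 1, 0.403 without Rbbp4/7_KD replicate 2, 0.714 without Rbbp7_KD replicate 1 and 0.0788 without Rbbp7_KD replicate 2. The maternal median was 0.125 without Rbbp4/7_KD replicate 1, 0.325 without Rbbp4/7_KD replicate 2 and 0.0693 without Rbbp7_KD replicate 2. Of 24 imprinted genes 16 were above 0, with a median of 0.0666 that was 0.337 without Rbbp4/7_KD replicate 1, −0.0946 without Rbbp4/7_KD replicate 2 and 0.15 without Rbbp7_KD replicate 2. Of 24 apoptosis genes of the BCL2 and caspase families 11 were above 0, with a median of −0.0848 that turned to 0.0119 without Rbbp4/7_KD replicate 2 and to 0.0969 without Rbbp7_KD replicate 1. All 13 mitochondrially encoded genes were above 0 with a median of 0.125, which was −0.00915 without Rbbp4/7_KD replicate 2 and 0.289 without Rbbp4/7_KD replicate 1. The mitochondrial share of abundance was 4.26% and 5.53% in Rbbp4/7_KD, against 4.29% and 4.43% in Rbbp7_KD.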

How the data were processed

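Polyadenylated RNA was sequenced from late morulae in 8 libraries, 2 in each of 4 groups, and groups and replicate numbers were taken from the sample titles. The submitters' processing notes name Trimmomatic, HISAT2, featureCounts, DESeq2 and the build GRCm38. Versions, annotation release and strand use were not given in the sources used here. Deposited values are an abundance signal for each Ensembl gene that the authors had scaled between libraries with DESeq2, going by the table's name. The column names of the Rbbp4/7_KD libraries differ from the titles by 1 letter and were matched by their gene numbers. The table held 0 columns of other samples. Whole reads could not be recovered, depth is unknown, and no count model or counting interval is given.

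Of 19058 genes, 18942 matched a symbol. Those averaging 10 or more, 12565 in number, were fitted as log2(value + 1) with limma 3.58.1 in R 4.3.3, with 1 mean per group and a trend in the variance prior (4 residual and 5.18 prior degrees of freedom). The pseudocount understates changes of low genes. Tests were two-sided with Benjamini-Hochberg adjustment over all tested genes, and every adjusted p in the text comes from this limma fit. An exact permutation test of 2 against 2 libraries cannot pass 0.05 and was not used. The script was tested on simulated data. The members and lists were chosen with earlier results of these data known. Named genes were both targets, the 15 largest called changes each way with a group mean of at least 20 and groups apart (predicted genes left out), called list members, up to 3 members with the smallest p per list, and a fixed set of 26 genes; others, apart from markers of cell types, are marked as picked after their values were seen. Coordinates are those of GENCODE M21 on GRCm38. Copies were annotated genes sharing at least 300 bases at 95% identity. Exons of further named genes overlap exons on the other strand, among them Rbbp4 (Sync), Rbbp7 (Txlng), Jun (Junos), Mtf2 (Tmed5) and Irf3 (Bcl2l12). With strand use not stated, their reads carry the same limit as those of Dcbld2. Alternatives were a pseudocount of 5, no filter, TMM scaling, written out in R, quantile normalization, group variance weights, a replicate block, fits to 4 or 6 libraries, and each library left out.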

Additional observations from a re-analysis of the deposited data

Results flagged for a closer look

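Ndufa9, a subunit of respiratory complex I, was the 1 gene whose response to the Rbbp4 siRNA differed between embryos with and without the Rbbp7 siRNA by the interaction test (limma adjusted p = 0.00344). It was at 476 and 323 in Rbbp4/7_KD, 459 and 172 in Rbbp7_KD, 0 and 0 in Rbbp4_KD, and 276 and 468 in NC. The fitted interaction of 8.97 on the log2 scale depends on the pseudocount, because Ndufa9 is listed at 0 in both Rbbp4_KD libraries, and it is no fold. Between Rbbp4/7_KD and Rbbp7_KD the groups overlapped (log2 difference 0.48 ± 0.48, limma adjusted p = 0.693).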

How the results depend on the processing

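All 45 genes called in Rbbp4/7_KD minus Rbbp7_KD kept their direction under each of the 16 alternatives, while the number called was less stable. It was 48 with a pseudocount of 5, 37 without the filter, 44 with TMM scaling, 52 after quantile normalization, 45 with group variance weights, 43 in the 6 knockdown libraries and 1 in the 4 libraries of the comparison alone. With 1 library left out it ranged from 5 to 43, and the residual degrees of freedom fell to 3. The count in Rbbp4_KD minus NC was 3 and ranged from 2 to 35, the highest without NC replicate 2, and that of the interaction was 1 and ranged from 1 to 21, the highest again without NC replicate 2. The cause was not tested.

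Replicate numbers did not pair the libraries: deviations of same-numbered Rbbp4/7_KD and Rbbp7_KD libraries correlated at 0.051. With a replicate block 30 genes were called, 28 of them among the 45, and Fgf4 passed. Uncalled genes near 0 changed sign when a library was left out: the log2 difference ranged from −0.15 to 0.15 for Rbbp7, from −0.098 to 0.089 for Gata3 (0.042 after quantile normalization), from −1.18 to 0.54 for Sox2, from −0.20 to 0.46 for Cdkn1a and from −0.22 to 1.18 for Ndufa9. The median log2 difference over all genes was −0.028 after quantile normalization, beside −0.0138 in the main fit.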

Other observations

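Other genes were listed at 0 in both libraries of a group and at a clear level in another group. Tusc3, an oligosaccharyltransferase subunit, was at 76.2 and 78.2 in Rbbp4/7_KD and listed at 0 in the other 6 libraries (limma adjusted p = 0.0784). Capn15, a calpain-family protease, was at 130 and 73.1 in Rbbp4/7_KD and at 0 in both Rbbp7_KD libraries, 1 of the Rbbp4_KD libraries and both NC libraries (limma adjusted p = 0.119). Ccdc66, a centrosome protein, was at 0 in both Rbbp4/7_KD libraries, against 51.4 and 42.7 in Rbbp7_KD (limma adjusted p = 0.125). The pseudogene Gm12613 was called higher, at 151 and 130 in Rbbp4/7_KD against 0 in both Rbbp7_KD libraries. It was also called in Rbbp4_KD minus NC (limma adjusted p = 0.04045), at 64.0 and 83.0 in Rbbp4_KD against 0 in both NC libraries. Gm12614 had the opposite pattern, at 0 in both Rbbp4/7_KD libraries against 115 and 55.6 in Rbbp7_KD. In Rbbp4_KD it was at 63.8 and 0, against 106 and 94.1 in NC. Gm12613 shares near-identical sequence with 10 annotated genes, so its reads may be split among copies. These genes were picked after their values were seen.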
